A study of Mus musculus with 8 samples.

Results

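A set of 10 leukocyte adhesion genes were followed in neutrophils of the inflamed spinal cord: the integrin subunits Itgb2, Itgal, Itgam, Itgax, Itga4 and Itgb1, the glycoproteins Selplg and Cd44, and the immunoglobulin-family molecules Pecam1 and Icam1. The rule names the genes and uses no measured value, although the members were chosen with earlier results of these data known. Of the members, 10 of 10 were found among the 23369 genes of the count table. The cells were CD45+CD11b+Ly6G+ neutrophils sorted from spinal cords of C57BL/6N mice in which experimental autoimmune encephalomyelitis (EAE), a mouse model of multiple sclerosis, had been induced. Bulk RNA of 4 samples taken at ZT1 was compared with that of 4 taken at ZT13, where zeitgeber time (ZT) counts the hours from lights-on. All 8 libraries therefore came from mice with EAE and from the same gate, and differed by time of day. The columns of the count table number all ZT13 samples before all ZT1 samples, and skip a number among the ZT13 samples. Any effect of that order cannot be told apart from time of day. The labels give cells per mouse but no animal identifiers, so p-values measure the spread between these samples.

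A neutrophil leaves the blood in steps. It first rolls on the vessel wall through selectins and their glycoprotein ligands, then stops when chemokine signals switch its integrins to a high-affinity state, and then crawls and crosses between or through endothelial cells. An integrin is a pair of an alpha and a beta chain that reaches the cell surface as a pair. The beta chain of Itgb2 (CD18) pairs with the alpha chains of Itgal (CD11a, giving LFA-1), Itgam (CD11b, giving Mac-1) and Itgax (CD11c). Itga4 pairs with Itgb1 to give VLA-4, the receptor of VCAM-1 and the target of natalizumab, an antibody used in multiple sclerosis. The cells were sorted from spinal cords, and the values do not tell cells outside the vessels from cells still inside them. The values are RNA levels, not surface protein or integrin activity.

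None of the 10 genes passed the test between the times. At an adjusted p of 0.05, edgeR's quasi-likelihood test with Benjamini-Hochberg adjustment called 0 of 10 members, beside 0% of all 12610 genes tested. At an unadjusted p of 0.05 it picked 1160 genes (9.2%), and DESeq2 called 118 of the same genes (0.94%) at an adjusted p of 0.05, or 256 (1.7%) when run on all genes of the table, with no member among them. In all, 3 members were under that unadjusted level: Selplg, which was higher at ZT13 (4.35% of all tested genes were higher at that level), and Itgal and Icam1, which were lower (4.85%). Counted over members that is 3 of 10. Selplg was the only member whose libraries did not overlap between the times, higher at ZT13, against 2.66% of all tested genes that did so in that direction and 5.66% in either. The median log2 fold change of the members, ZT13 over ZT1, was -0.03, with 3 above and 7 below 0. Over all tested genes it was -0.02, with 47.7% above 0.

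The libraries held 46152067 to 67873023 counts, so that a gene without a count could still stand at up to 0.0414 to 0.0674 CPM (3 counts; CPM is the count scaled to library size). Replicate 3 at ZT13 stood apart on the first principal component (30.4% of the variance), at 141.02 against -29.39 to 1.58 for the other libraries. On the next component (19.1%) replicates 1 and 4 at ZT13 stood apart in opposite directions, at -78.63 and 92.11, with the rest at -8.62 to 3.8, so that 3 of the 4 ZT13 libraries stood apart and no ZT1 library did. Fewer genes were detected at ZT13 (13945 to 15751) than at ZT1 (15760 to 17701), with no overlap. RNA of the sort markers was present: Ptprc, which encodes CD45, stood at 1526 to 1916 CPM and Ly6g at 264 to 512 CPM over the 8 libraries. These levels do not give the purity of the cells. F13a1, a gene of the monocyte list, stood at 1287 ± 249 CPM at ZT1 and 1337 ± 215 CPM at ZT13 (SD, n = 4 each). The summed level of 13 neutrophil markers was 143391 to 182834 CPM at ZT1 and 185580 to 237271 CPM at ZT13, without overlap. Ngp, Ltf, S100a9 and S100a8 had means of 25199 to 35355 CPM at ZT1, and the others at most 8060 CPM. Of the 13 markers 12 had a log2 fold change above 0. Only Lcn2 did not overlap, as for 2.66% of all tested genes in that direction. Csf3r went the other way, at 1904 ± 230 CPM at ZT1 and 1559 ± 130 CPM at ZT13 (SD, n = 4 each). The sum moved with the time of day beside every result below, and its part in them was not tested. In bulk RNA, fewer cells of a type and less RNA per cell cannot be told apart.

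Promoters are shown for the 2 members whose upstream sequence carries motifs of factors tied to their known control: Icam1, a textbook target of NF-kB and of STAT factors, and Itgam, a myeloid gene. RefSeq promoter entries (GRCm38.p6) matched 6 of the 10 members (Itgam, Itgax, Itga4, Itgb1, Cd44 and Icam1). The 250 bases before each RefSeq start are printed 5′ to 3′ on the gene's strand. For Icam1 (chr9:21015690-21015939, plus strand) capitals mark a kB form, spelled GGANNNTCC, and a STAT-type motif, spelled TTCNNNGAA. For Itgam (chr7:128062390-128062639, plus strand) capitals mark the core of PU.1 sites, GAGGAA, on either strand.
Icam1: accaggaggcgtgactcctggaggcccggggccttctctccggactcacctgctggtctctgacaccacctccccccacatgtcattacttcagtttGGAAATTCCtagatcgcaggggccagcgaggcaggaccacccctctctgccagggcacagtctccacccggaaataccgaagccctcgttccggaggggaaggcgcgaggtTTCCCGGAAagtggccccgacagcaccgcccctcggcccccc
Itgam: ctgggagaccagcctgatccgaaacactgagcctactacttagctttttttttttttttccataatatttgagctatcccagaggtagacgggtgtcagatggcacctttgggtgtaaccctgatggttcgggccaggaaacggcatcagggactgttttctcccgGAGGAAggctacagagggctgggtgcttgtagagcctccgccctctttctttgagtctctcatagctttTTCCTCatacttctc
The Icam1 matches, GGAAATTCC and TTCCCGGAA, lie 153 to 145 and 42 to 34 bases before the RefSeq start. GGANNNTCC was found in 7.27% and TTCNNNGAA in 7.02% of 32851 promoter windows of that length, searched on both strands, and among the 6 members only Icam1 held either. The Itgam matches lie 84 to 79 and 15 to 10 bases before the start. GAGGAA was found in 23.3% of windows and also in those of Itgb1 and Cd44. The E-box CACGTG, the motif of the clock factors CLOCK and BMAL1, was in none of the 6 windows and in 6.02% of all windows. A match describes letters and does not show that a factor is bound.

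Levels of different genes were compared as CPM per kilobase of merged exons, which allows for gene length. Itgb2 stood highest, at 799 to 905 CPM per kb over the 8 libraries, followed by Selplg at 338 to 441. Cd44 (83.6 to 122) and Itgam (91.8 to 99.9) overlapped each other, and Itgal followed at 57.8 to 84.8, overlapping 1 Cd44 library (replicate 1 at ZT1, 83.6). Itgb1 stood at 34.8 to 42.1 CPM per kb and Icam1 at 5.89 to 22.5. Itga4 (1.51 to 5.55), Pecam1 (1.32 to 3.35) and Itgax (0 to 2.45) were lowest, and neighbours in that order overlapped. With the longest transcript as the length, Selplg ranked first and Itgb2 next.

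**Figure D1:**
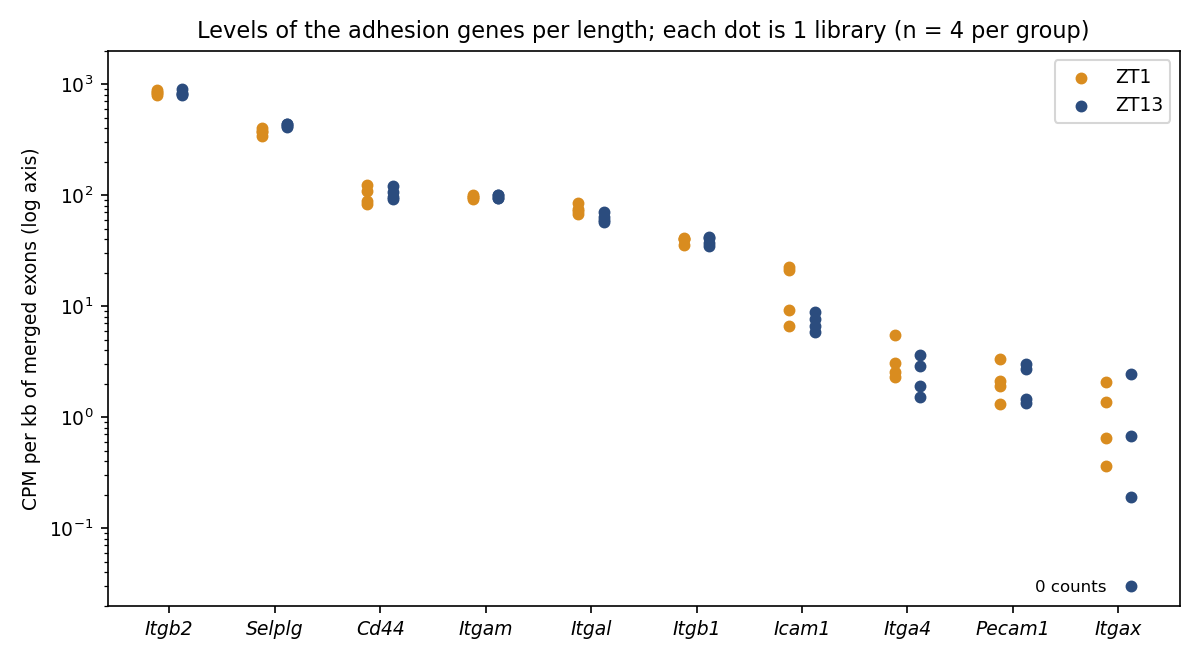
Levels of the 10 adhesion genes in CPM per kilobase of merged exons on a log axis, 1 dot per library, ordered by mean. Itgb2 lies at 799 to 905 and Selplg at 338 to 441, while Itgax reaches at most 2.45 and its library without a count is drawn at the bottom.

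The shared beta chain Itgb2 (chromosome 10, 77530252 to 77565708, plus strand, GRCm38) stood at 2551, 2687, 2460 and 2568 CPM in replicates 1 to 4 at ZT1 and at 2512, 2437, 2761 and 2534 CPM at ZT13. The groups overlapped fully. Means were 2567 ± 93.3 (SD, n = 4) and 2561 ± 139 CPM, and the log2 fold change was -0.0032 ± 0.074 (SE; 95% interval -0.17 to 0.16; edgeR's quasi-likelihood test, Benjamini-Hochberg adjusted p = 0.994). The interval lies within 1.5-fold in either direction (0.58 on the log2 scale).

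The 3 alpha chains that pair with it lie on chromosome 7 on the plus strand, Itgal at 127296260 to 127335138, Itgam at 128062640 to 128118491 and Itgax at 128129547 to 128150657. Itgam and Itgax are 11.1 kb apart, and Itgal ends 727.5 kb before Itgam. Itgal, whose product is the LFA-1 alpha chain and binds ICAM-1, stood at 474, 448, 557 and 491 CPM at ZT1 and at 391, 459, 420 and 380 CPM at ZT13. Replicate 3 was the highest at ZT1, and replicate 2 at ZT13 lay above the lowest ZT1 library. The means were 492 ± 46.7 and 412 ± 35.4 CPM (SD, n = 4 each). The fold change was 0.838 (95% interval 0.722 to 0.973), or -0.26 ± 0.096 (SE) on the log2 scale, and did not pass the test (edgeR unadjusted p = 0.0248, Benjamini-Hochberg adjusted p = 0.497). With each library left out in turn the log2 value ran from -0.31 to -0.19.

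Itgam encodes CD11b, the protein used to gate these cells, so its level is conditioned by the sort. It stood at 488, 501, 461 and 479 CPM at ZT1 and at 500, 502, 478 and 473 CPM at ZT13. The libraries lay close together in both groups and overlapped, with a log2 fold change of 0.018 ± 0.070 (SE; 95% interval -0.14 to 0.17; edgeR Benjamini-Hochberg adjusted p = 0.967). An overlapping gene model on the same strand, Gm49368 (mean 0.476 CPM), covers 68.7% of the exon bases of Itgam. The sources used here do not say how reads that fit both genes were counted, so the level of Itgam, and any ratio of levels that holds it, may be too low.

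Itgax encodes CD11c, an integrin chain best known from dendritic cells. It had 190, 461, 390 and 126 counts at ZT1 (3.09, 9.90, 6.54 and 1.74 CPM) and 0, 691, 46 and 146 counts at ZT13 (0, 11.8, 0.925 and 3.28 CPM). Replicate 2 at ZT13 was the highest and replicate 1 at ZT13 the lowest of all 8, so the spread within ZT13 covered that of ZT1. The log2 fold change was -0.41, with a 95% interval from -3.09 to 2.27 (edgeR Benjamini-Hochberg adjusted p = 0.958). It was -2.30 with limma-voom, -1.93 without replicate 2 at ZT13 and 0.075 without replicate 2 at ZT1. The summed level of 10 dendritic cell genes was 123, 362, 415 and 137 CPM at ZT1 and 338, 320, 178 and 233 CPM at ZT13, with Zbtb46, Xcr1 and Clec9a under 1 CPM in every library. Cd74 made up most of this sum in each library (239 of 362 CPM in replicate 2 at ZT1). The part of such cells in the Itgax values was not tested.

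**Figure D2:**
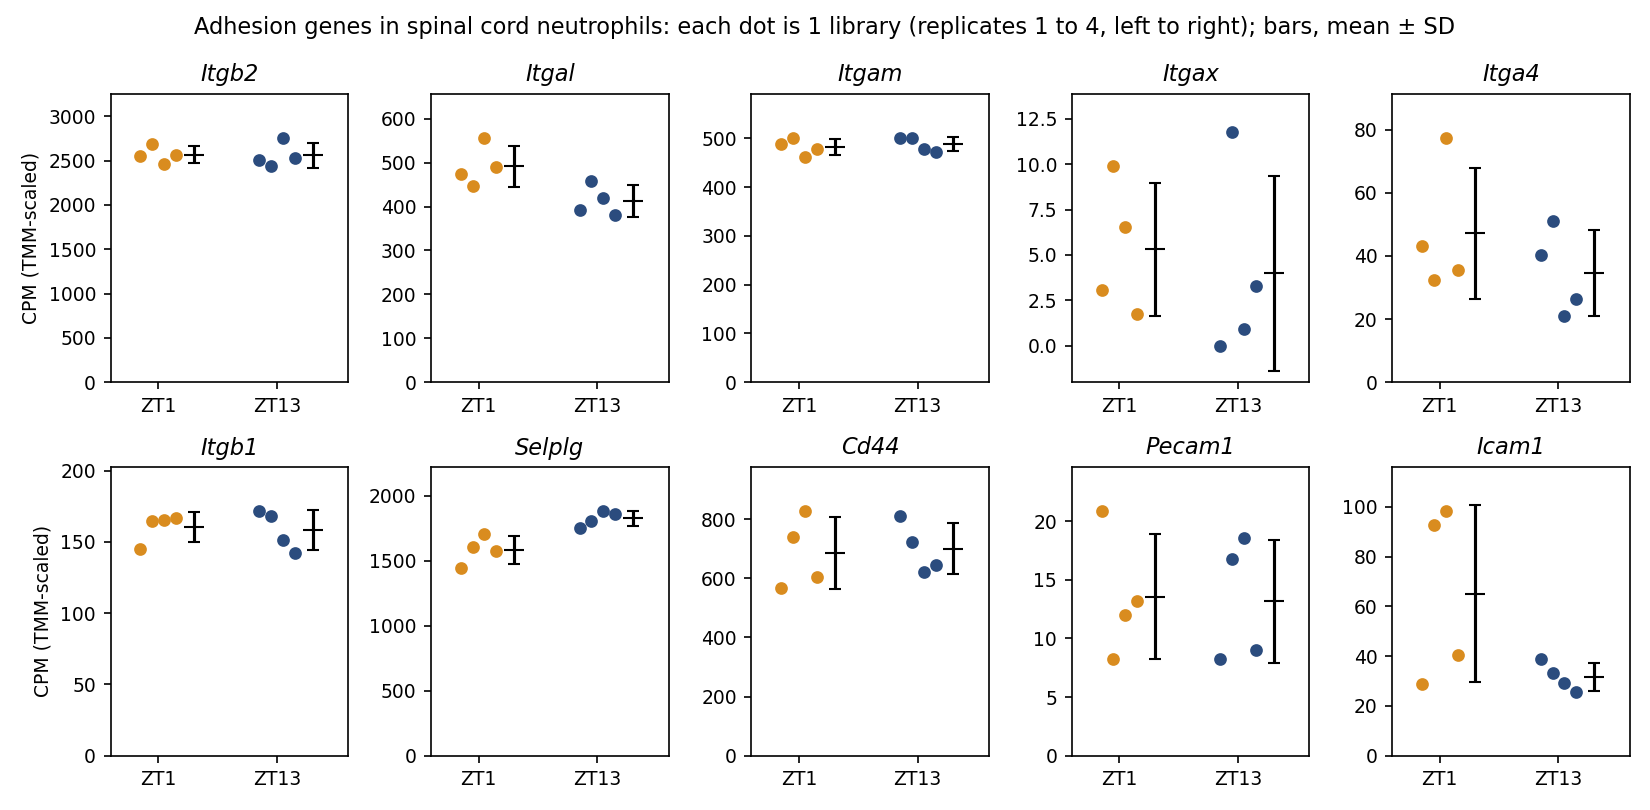
CPM of each of the 10 genes in each library, 4 at ZT1 and 4 at ZT13 (replicates 1 to 4 from left to right), with the mean ± SD as bars, each panel on its own linear axis. Only for Selplg do the 2 groups not overlap, and at ZT1 Icam1 lies at 92.5 and 98.3 CPM in 2 libraries and at 28.6 and 40.6 CPM in the others.

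Of the VLA-4 pair, the alpha chain Itga4 (chromosome 2, 79255426 to 79333123) stood at 43.2, 32.3, 77.5 and 35.6 CPM at ZT1 and at 40.2, 51.0, 21 and 26.4 CPM at ZT13. Replicate 3 at ZT1 was the highest and the groups overlapped. The log2 fold change was -0.44 ± 0.34 (SE; 95% interval -1.20 to 0.31; edgeR Benjamini-Hochberg adjusted p = 0.761) and -0.099 without that library. The summed level of 12 microglia and macrophage genes was 676, 802, 991 and 891 CPM at ZT1 and 844, 920, 581 and 652 CPM at ZT13, and that of 7 monocyte genes 4019, 3284, 4625 and 3753 CPM and 4375, 4745, 3269 and 3939 CPM. Both sums were highest in replicate 3 among the ZT1 libraries and in replicate 2 among the ZT13 libraries, and lowest at ZT13 in replicate 3, as was Itga4. Within each time the monocyte sum ranked the libraries in the same order as Itga4. The microglia and macrophage sum did so at ZT13 but not at ZT1. In replicates 1 and 4 at ZT1 it was 676 and 891 CPM, and Itga4 43.2 and 35.6 CPM. Csf1r made up most of that sum in each library (455 of 676 CPM in replicate 1 at ZT1). The part of such cells in the values of Itga4 was not tested. Its partner Itgb1 (CD29; chromosome 8, 128685654 to 128733200) stood at 145, 165, 165 and 167 CPM at ZT1 and at 172, 168, 151 and 142 CPM at ZT13. The groups overlapped, with means of 160 ± 10.5 and 158 ± 14.0 CPM (SD, n = 4 each). The log2 fold change of Itgb1 was -0.020 ± 0.095 (SE; 95% interval -0.23 to 0.19; edgeR Benjamini-Hochberg adjusted p = 0.972). Per kilobase every Itga4 value lay below every Itgb1 value.

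Selplg encodes PSGL-1, the ligand of P-selectin on which leukocytes roll, and lies on chromosome 5 (113818536 to 113832644, minus strand). It stood at 1445, 1605, 1705 and 1578 CPM at ZT1 and at 1751, 1808, 1883 and 1863 CPM at ZT13. Every ZT13 library was above every ZT1 library. The means were 1583 ± 107 and 1826 ± 59.6 CPM (SD, n = 4 each), a fold of 1.15 (95% interval 1.02 to 1.30). The log2 difference of 0.21 ± 0.077 (SE) did not pass the test (edgeR unadjusted p = 0.0234, Benjamini-Hochberg adjusted p = 0.494). With each library left out in turn it ran from 0.16 to 0.24. Cd44, a receptor for hyaluronan and a ligand of E-selectin (chromosome 2, 102811141 to 102901665, minus strand), stood at 566, 741, 828 and 604 CPM at ZT1 and at 812, 723, 621 and 647 CPM at ZT13. The groups overlapped, with a log2 fold change of 0.033 ± 0.14 (SE; 95% interval -0.27 to 0.34; edgeR Benjamini-Hochberg adjusted p = 0.971).

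Pecam1 encodes CD31, a molecule of endothelial junctions, platelets and leukocytes that acts in transmigration (chromosome 11, 106654217 to 106750628, minus strand). It stood at 20.9, 8.23, 12 and 13.2 CPM at ZT1 and at 8.27, 16.8, 18.6 and 9.05 CPM at ZT13. Both groups held high and low libraries, and the 95% interval of the log2 fold change, -0.83 to 0.74, was wider than 1.5-fold (edgeR Benjamini-Hochberg adjusted p = 0.986). The endothelial gene Cdh5 reached at most 0.227 CPM, and 7 of 12 endothelial markers were under 1 CPM in every library, with Slco1a4 and Ptprb at 0 throughout. The other endothelial markers were present at low levels. Flt1 reached 8.52 CPM (4.85 ± 2.72 CPM at ZT1 and 1.38 ± 1.24 CPM at ZT13, SD, n = 4 each). Ly6c1, Kdr, Vwf and Egfl7 reached 3.23, 2.03, 1.77 and 1.53 CPM. The summed endothelial level was 5.65 to 10.9 CPM at ZT1 and 4.78 to 6.69 CPM at ZT13, and its part in the Pecam1 values was not tested.

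Icam1 encodes ICAM-1, the ligand of LFA-1 and Mac-1, best known from inflamed endothelium and also made by activated leukocytes (chromosome 9, 21015985 to 21028817, plus strand). It stood at 28.6, 92.5, 98.3 and 40.6 CPM at ZT1 and at 38.7, 33.2, 29.1 and 25.7 CPM at ZT13. Replicates 2 and 3 at ZT1 were above all other libraries, and the other ZT1 libraries lay within or just above the ZT13 range. The means were 65.0 ± 35.5 and 31.7 ± 5.62 CPM (SD, n = 4 each), a fold of 0.488 (95% interval 0.277 to 0.860). The log2 fold change of -1.04 ± 0.37 (SE) did not pass the test (edgeR unadjusted p = 0.0182, Benjamini-Hochberg adjusted p = 0.491; DESeq2 adjusted p = 0.119). It was -0.77 without replicate 3 at ZT1, and -1.15, -1.0 and -0.95 without replicates 1, 3 and 4 at ZT13, the libraries that stood apart. An antisense gene, Gm47079, shares 11.7% of the exon bases of Icam1, and the library preparation does not mark strand. The dendritic cell sum given above was also highest in replicates 2 and 3 among the ZT1 libraries, at 362 and 415 CPM. At ZT13 that sum and Icam1 were both highest in replicates 1 and 2. The sum was 338 and 320 CPM there, and Icam1 stood at 38.7 and 33.2 CPM. The part of such cells in the Icam1 values was not tested.

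**Figure D3:**
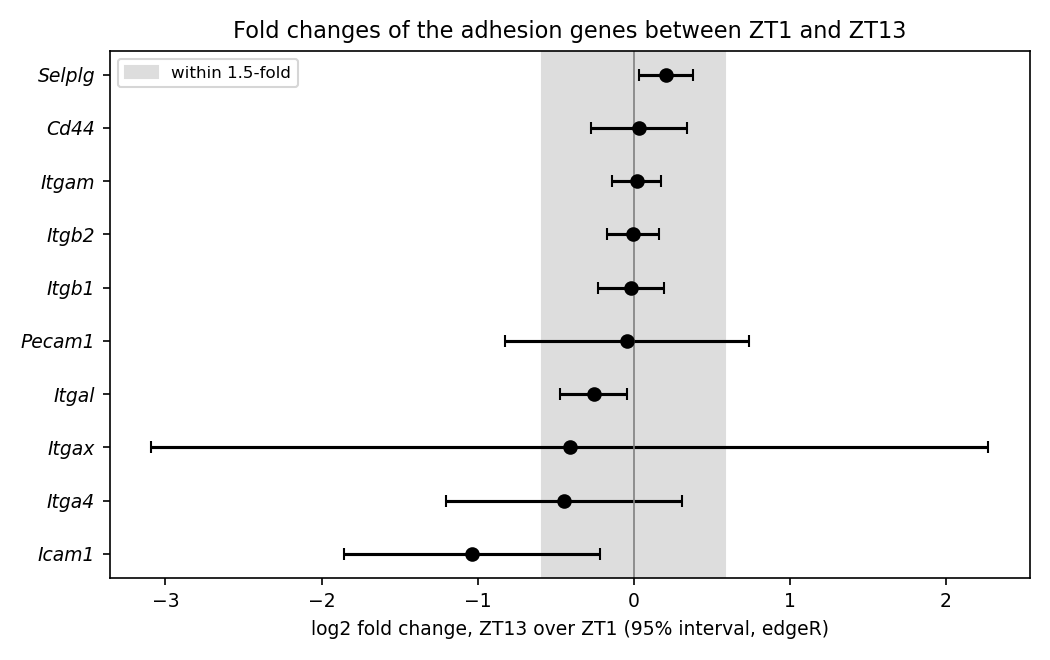
Log2 fold change, ZT13 over ZT1, of each gene with its 95% interval from the edgeR fit, and the range within 1.5-fold shaded. The intervals of 6 genes lie inside the shaded range and those of Itgax, Itga4, Pecam1 and Icam1 reach beyond it.

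The 95% intervals bound how large a difference these samples allow. For Itgb2, Itgal, Itgam, Itgb1, Selplg and Cd44 (6 of 10) they lie inside 1.5-fold, which holds for 27.7% of all tested genes. The other 4, Itgax, Itga4, Pecam1 and Icam1, are the 4 members with the lowest CPM per kb, and their intervals also allow differences of more than 1.5-fold.

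Ratios of subunits within a library do not depend on how libraries are scaled, and 5 were tested by exact permutation (two-sided, all 70 assignments of the libraries, smallest possible p = 0.0286). The ratio of Itgam to Itgal, per kilobase, which sets Mac-1 beside LFA-1 at the RNA level, was 1.35, 1.46, 1.08 and 1.28 at ZT1 and 1.67, 1.43, 1.49 and 1.63 at ZT13. Replicate 2 at ZT13 lay below the highest ZT1 library. The means were 1.29 ± 0.160 and 1.55 ± 0.115 (SD, n = 4 each), a log2 difference of 0.27 (exact permutation p = 0.0571, Benjamini-Hochberg adjusted over the 5 ratios 0.214). For Itgal to Itgb2 the means were 0.0894 ± 0.0116 and 0.0750 ± 0.00841, a log2 difference of -0.25 (exact permutation p = 0.0857, adjusted 0.214). Itgam to Itgb2 stood at 0.114 ± 0.00148 and 0.116 ± 0.00878, a log2 difference of 0.022 (exact permutation p = 0.8, adjusted 0.8). Itga4 to Itgb1 stood at 0.0860 ± 0.0365 and 0.0630 ± 0.0205, a log2 difference of -0.42 (exact permutation p = 0.371, adjusted 0.464). Itgax to Itgb2 had the same p and adjusted p, and no fold is given because 1 library held 0 counts of Itgax. No ratio passed the threshold after adjustment.

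**Figure D4:**
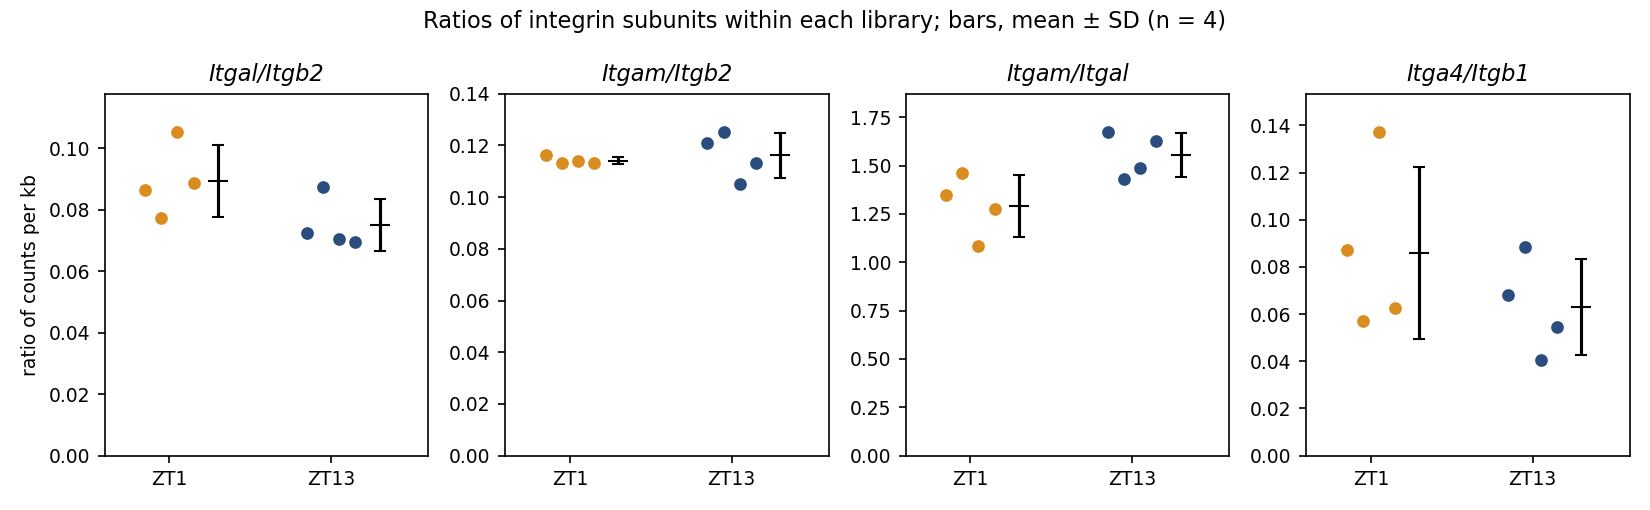
Ratio of 2 subunits within each library in counts per kilobase, 4 libraries at ZT1 and 4 at ZT13, with the mean ± SD as bars and axes that start at 0. Itgam/Itgb2 stays near 0.114 to 0.116 in the mean at both times, and Itgam/Itgal is 1.29 at ZT1 and 1.55 at ZT13.

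Other genes of the adhesion machinery were followed in 5 lists, and none of their genes passed the test (edgeR adjusted p of 0.05). For the counts of each list, the shares over all tested genes serve as the measure. At an unadjusted edgeR p of 0.05, 4.35% of them were higher at ZT13 and 4.85% lower. Libraries did not overlap for 2.66% in the higher and 3% in the lower direction. Of the rolling list (selectins, their ligands and the enzymes that build them) 15 of 17 genes were tested. None was under an unadjusted p of 0.05, 8 had a log2 fold change above 0 and 7 below, and the median was 0.0048. B4galt1, a galactosyltransferase, had the smallest unadjusted p of this list, with 81.6 ± 8.81 CPM at ZT1 and 64.0 ± 16.4 CPM at ZT13 (SD, n = 4 each).

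Of 20 other integrin subunits 8 were tested, 1 was under the unadjusted level in each direction, and the median was 0.026. Itga6, the alpha chain of laminin receptors, stood at 8.25, 9.99, 8.91 and 5.69 CPM at ZT1 and at 9.12, 17.4, 27.8 and 16.7 CPM at ZT13, a log2 fold change of 1.11 ± 0.33 (SE; edgeR Benjamini-Hochberg adjusted p = 0.434). Its ZT13 replicate 1 lay within the ZT1 range. Itga5, the alpha chain of the fibronectin receptor and another partner of Itgb1, stood at 48.7 ± 9.04 CPM at ZT1 and 35.5 ± 3.52 CPM at ZT13 (SD, n = 4 each), a log2 fold change of -0.46 ± 0.16 (SE; edgeR Benjamini-Hochberg adjusted p = 0.491). Itgb7, another partner of Itga4, named here after its values were seen, was the most abundant of this list, at 199 ± 12.6 and 203 ± 26.4 CPM.

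Of 36 genes of integrin activation and signalling 32 were tested, with 10 log2 fold changes above 0 and 22 below, a median of -0.052, and 2 higher and 1 lower at the unadjusted level. Rassf5, which encodes RAPL, a partner of the small GTPase RAP1 in LFA-1 activation, stood at 388, 381, 354 and 390 CPM at ZT1 and at 419, 443, 491 and 420 CPM at ZT13. These groups did not overlap, and the log2 fold change was 0.23 ± 0.082 (SE; edgeR Benjamini-Hochberg adjusted p = 0.491). Apbb1ip, which encodes RIAM and brings talin to RAP1, stood at 62.5 ± 6.07 CPM at ZT1 and 74.7 ± 5.42 CPM at ZT13. Vcl, the adhesion-site protein vinculin, stood at 175 ± 7.30 and 145 ± 19.3 CPM.

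Of 28 ligands and junctional partners 19 were tested, with 2 higher and 2 lower at the unadjusted level and a median of -0.086. Cd47, the ligand of SIRP-alpha and a partner of integrins, stood at 634, 654, 639 and 610 CPM at ZT1 and at 686, 701, 726 and 724 CPM at ZT13, without overlap (log2 fold change 0.16 ± 0.068, SE; edgeR Benjamini-Hochberg adjusted p = 0.526). Mcam, an adhesion molecule of vessels and some leukocytes, stood at 28.9 ± 9.56 and 52.1 ± 13 CPM. Spp1, which encodes osteopontin, an integrin ligand, stood at 122 ± 63.9 and 55.8 ± 26.1 CPM, and Vcam1, the ligand of VLA-4, at 6.60 ± 1.96 and 3.31 ± 1.61 CPM.

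All 10 genes of the protease list, which holds enzymes that cut adhesion molecules or matrix and the inhibitors Timp1 and Timp2, were tested, with 2 lower and none higher at the unadjusted level and a median of -0.17. Adam10, a sheddase that cleaves CD44, stood at 208, 155, 208 and 197 CPM at ZT1 and at 134, 164, 126 and 159 CPM at ZT13, a log2 fold change of -0.40 ± 0.13 (SE; edgeR Benjamini-Hochberg adjusted p = 0.473). Adam17, a sheddase of surface proteins, stood at 126 ± 10.1 and 94.7 ± 21.3 CPM (SD, n = 4 each), a log2 fold change of -0.41 ± 0.15 (SE; edgeR Benjamini-Hochberg adjusted p = 0.494). In both genes the groups overlapped. The lowest fold changes of this list in the plot belong to Mmp14 and Timp1, which had no count in some libraries and for which no fold is given.

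**Figure D5:**
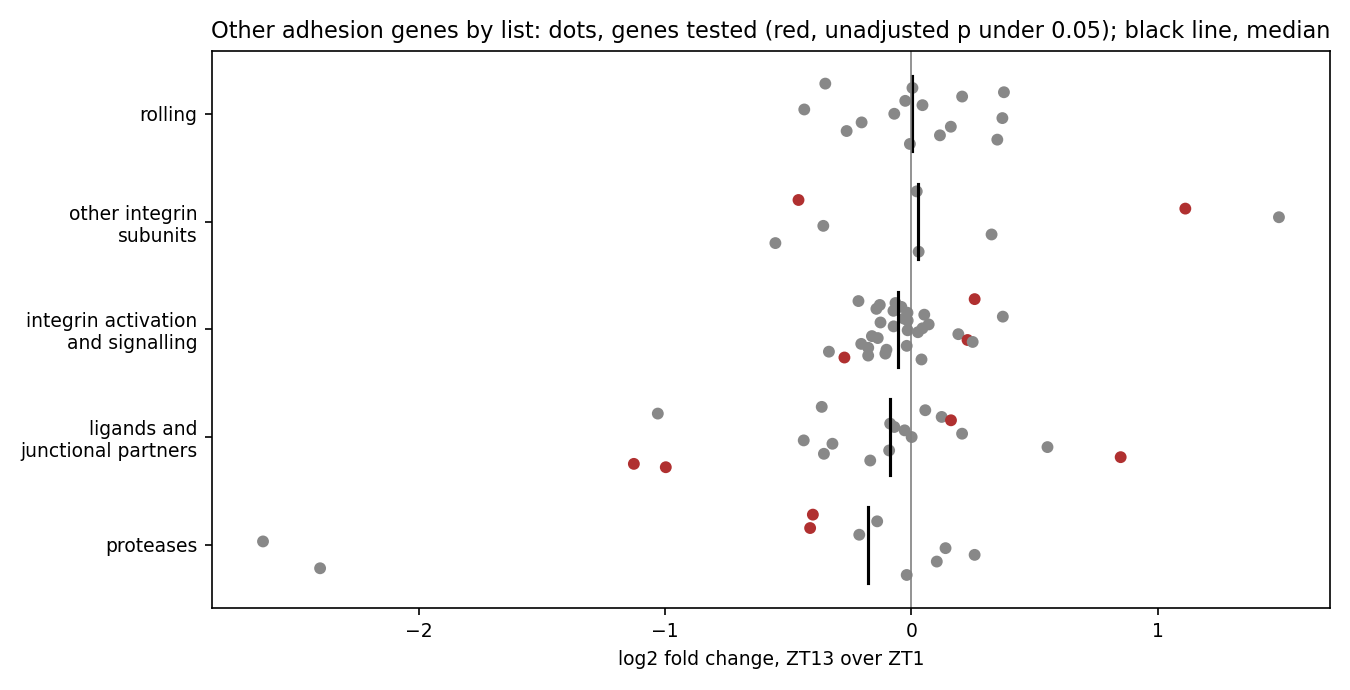
Log2 fold change, ZT13 over ZT1, of the tested genes of 5 adhesion lists, 1 dot per gene, red where the unadjusted edgeR p is under 0.05, with the median of each list as a black line. The medians run from -0.17 for the protease list to 0.026 for the other integrin subunits, and no gene passed the adjusted threshold.

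Genes with the most similar pattern were listed for each member by Pearson's r of log2 CPM over the 8 libraries, among about 7200 genes of 8 or more mean CPM. Libraries share depth and composition, and these values are a description. Cd44 was most similar to Cd74 (r = 0.959) and H2-Ab1 (r = 0.958), both of antigen presentation by MHC class II. Cd74 stood at 87.7, 239, 280 and 91.6 CPM at ZT1 and at 227, 205, 122 and 153 CPM at ZT13, with replicates 2 and 3 high at ZT1 as for Cd44. Icam1 was most similar to Arrdc4 (r = 0.969), Tnfaip2 (r = 0.955), a gene induced by TNF, and Rnf149 (r = 0.954). Selplg was most similar to Hax1 (r = 0.986), Abracl (r = 0.985) and Rab2a (r = 0.979), and Itgal to Dusp6 (r = 0.976), a phosphatase of ERK kinases. Pecam1 was most similar to Cep128 (r = 0.948) and Cd38 (r = 0.946). Among the 45 pairs of members, r ran from -0.785 (Itga4 and Itgb2) to 0.728 (Itga4 and Itgal).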

How the data were processed

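Single reads of 50 bases came from 8 libraries made with SMART-Seq v4 and Nextera XT, per the labels' protocols, all in 1 batch. The authors deposited raw counts per gene, not normalized. The submitters' processing notes name build GRCm38, DESeq2 1.46.0, Subread 2.0.3, featureCounts, STAR 2.7.10b and FastQC. Neither their settings nor the annotation release is stated in the sources used here. Of 23369 identifiers, 22222 matched GENCODE M21, which gave names, coordinates and merged exon lengths. No column was left unused, and no library pair was identical.

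Genes were filtered with filterByExpr (minimum count 10, minimum total 15), which kept 12610, scaled by TMM and tested for ZT13 over ZT1 with edgeR 4.0.16 (robust quasi-likelihood, R 4.3.3) with Benjamini-Hochberg adjustment over all genes tested. Standard errors were derived from the fold change and its F statistic. CPM values use the TMM factors. Counting limits cover counting error only. Subunit ratios added 0.5 counts. Text genes are the members, the sort markers, up to 4 genes with the smallest p of each list, abundant or absent marker genes, and the 3 most similar genes per member. Members and lists were chosen with earlier results of these data known. Alternatives changed the scaling, the filter, the tool (DESeq2 1.42.0, limma-voom 3.58.1), the samples and the block. Some genes that this rule allows are not reported here.

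Libraries were also checked for markers of other cells. Summed levels at ZT1 and ZT13 were 21.4 to 34.7 and 22.1 to 54.2 CPM for platelets, 676 to 991 and 581 to 920 for microglia and macrophages, 3284 to 4625 and 3269 to 4745 for monocytes, 8.66 to 19.6 and 8.85 to 22.2 for T and NK cells, 136 to 249 and 154 to 194 for B cells, and 107 to 155 and 109 to 192 for neural cells. All of these sums overlapped between the times. Of all tested genes 5.66% did not overlap in either direction, and some single markers of these lists were among them. Ly6c2 (monocyte list) stood at 679 to 1048 CPM at ZT1 and 1105 to 1298 CPM at ZT13. Cd79b (B cell list) stood at 0.940 to 1.95 and 2.29 to 4.51 CPM, and Mrc1 (macrophage list) at 0.585 to 2.26 and 0 to 0.135 CPM. Another monocyte marker, Ccr2, stood at 437 to 548 and 305 to 491 CPM.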

Additional observations from a re-analysis of the deposited data

Results flagged for a closer look

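Values in each group of 4 libraries were checked for a library far from the other 3, in 30 groups (each gene's CPM and each subunit ratio at each time). A library was picked where its gap to the nearest library, divided by the range of the group, was above Dixon's 95% critical value. Chance alone picks about 1 in 20 groups, and 2 of the 30 were picked.

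Itgb1 at ZT1 was lowest in replicate 1, at 145 CPM, with the other libraries at 165 to 167 CPM (gap over range 0.917). The log2 ratio of Itgal to Itgb2 counts at ZT13 was highest in replicate 2, at -2.41, with the others at -2.68 to -2.74 (gap over range 0.831).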

How the results depend on the processing

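No gene passed an adjusted p of 0.05 with edgeR when any 1 library was left out (0 to 0 genes). DESeq2 called 118 genes on the same filtered genes and 256 on all genes of the table, the latter chosen after seeing the data. Icam1, Itgal, Itga4 and Selplg kept their direction under all 19 alternatives. Log2 fold changes ran from -1.28 to -0.51 for Icam1, from -0.31 to -0.15 for Itgal, from -0.69 to -0.069 for Itga4 and from 0.15 to 0.24 for Selplg, with smallest adjusted p-values of 0.119, 0.224, 0.539 and 0.145.

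The other 6 changed sign somewhere, and the cause was not tested. Itgb2 stood at 0.0014 with DESeq2 size factors and with DESeq2, 0.016 with upper-quartile factors and 0.016 with a filter of 5 CPM in 4 libraries. Itgam stood at -0.042 with library totals and -0.0020 without a filter. Cd44 stood at -0.011 with library totals, and Pecam1 at 0.032 with voom quality weights. With each library left out in turn, the range was -0.043 to 0.017 for Itgb2, -0.0054 to 0.035 for Itgam, -1.93 to 0.075 for Itgax, -0.070 to 0.027 for Itgb1, -0.051 to 0.13 for Cd44, -0.26 to 0.24 for Pecam1 and -0.014 to 0.069 for the log2 ratio of Itgam to Itgb2. Itgax was not tested under the 5 CPM filter, and its ratio to Itgb2 has no value without an added count. Among genes under an unadjusted p of 0.05, 47.2% were higher at ZT13, against 34% with library totals and 55.3% with upper-quartile factors. By longest transcript Selplg ranked 1 and Itgb2 ranked 2.

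The labels name no animal that links samples with the same replicate number. Deviations of samples with the same number correlated across genes at -0.04 to 0.02 by title numbers (4 pairs). By library name numbers they correlated at -0.001 to 0.05 (3 pairs). With the title number as a replicate block, 0 genes passed, and Icam1 stood at -0.88 (edgeR adjusted p = 0.631). With the library name number as the block, 0 genes passed, Itgb1 stood at 0.044, Pecam1 at 0.086 and Icam1 at -0.51. Itgax stood at -1.62 and -1.76 under these blocks.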
